A study of Mus musculus with 24 samples.

Results

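At 12 months of age, the left ventricle of mice that carried an α-tropomyosin transgene and lacked phospholamban was compared with that of nontransgenic mice. The comparison used 6 of the 24 arrays of the series, chosen by their titles: the 3 arrays titled Tm180/PLB KO at 12 months and the 3 titled NTG at 12 months. The study followed heart gene expression over time after a mouse model of inherited hypertrophic cardiomyopathy was crossed with a phospholamban knockout, in 4 genotypes at 4 and 12 months, with 3 biological replicates per group. Tm180/PLB KO mice are labelled α-tropomyosin transgenic and phospholamban knockout, and NTG mice are labelled nontransgenic. 4 other groups are used below where they bear on this comparison: Tm180 (transgene alone) and PLB KO (knockout alone) at 12 months, and Tm180/PLB KO and NTG at 4 months. The labels give neither the promoter nor the founder line of the transgene, and neither the strain nor the sex of the mice. All Tm180/PLB KO mice carry both changes, and no group with a wild-type tropomyosin transgene is analysed here, so the mutation and the presence of a transgene cannot be told apart. 1 array, Tm180/PLB KO replicate 2 at 4 months, carries 12 months in its source name and 4 months in its other labels, which were followed.

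Phospholamban is a small membrane protein of the sarcoplasmic reticulum that holds back the calcium pump SERCA2a until it is phosphorylated under β-adrenergic drive, so a heart without it takes up calcium faster. α-Tropomyosin lies along the actin filament and, with the troponins, sets how readily calcium switches on contraction. Mutations in it that raise calcium sensitivity cause familial hypertrophic cardiomyopathy, in which the ventricle thickens, returns to fetal gene expression and scars, and Tm180 is the label of a mouse model of that disease. Adult ventricle runs mainly on fatty acids, and the genes for their oxidation are highly expressed in it.

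Against NTG, the Tm180/PLB KO ventricle at 12 months had higher natriuretic peptide and matrix genes and lower genes of fatty acid oxidation. Of 15918 genes tested, 68 passed limma's moderated test at an adjusted p under 0.05 and are termed called (0.427% of those tested), 19 higher (0.119%) and 49 lower (0.308%). Nppa, the gene of atrial natriuretic peptide, was 4.40-fold higher, and apart from Pln itself this was the largest fold of a called gene in either direction. Mylk4, a myosin light chain kinase of striated muscle, was 4.07-fold lower and Ucp3, a mitochondrial carrier of the inner membrane, 3.93-fold lower. Of the 68 genes, 63 differed at least 1.5-fold and 24 at least 2-fold, of which 7 were higher and 17 lower. In all 68 the 3 arrays of one group lay beyond the 3 of the other, which 10.5% of all genes tested did. With the replicate number as a block the count was 372 of the same 15918 genes, of which 161 were higher and 211 lower, and the 68 were all among them. List counts with the block, given below, are to be read beside these larger counts. Over all genes tested the median log2 difference was 0.0059, 51.6% lay above 0 and 48.4% below, and 6.44% had an unadjusted p under 0.05. Counts of list members below, called or at an unadjusted p under 0.05, are to be read beside these shares of all genes.

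Values are log2 expression per array, so 1 unit is a 2-fold difference, and levels of different genes are not compared because probes differ in brightness. Differences are Tm180/PLB KO minus NTG with their standard error (SE), n = 3 arrays per group throughout. Adjusted p-values are limma's with Benjamini-Hochberg adjustment over all genes tested. The number of arrays, not a read depth, limits the precision.

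The bases just upstream of 3 genes that carry the results are printed here for 2 reasons. The natriuretic peptide genes moved together, and Ucp3 was called at 12 months with a difference near 0 at 4 months. The change of the Ucp3 difference with age, described below, missed the threshold. Each run is the 250 bases before the transcript start, 5′ to 3′ on the plus strand, from RefSeq on GRCm38.p6. Capitals mark matches on either strand to 4 short motifs: GATAA (bound by GATA factors), CATTCC (bound by TEAD factors), TATAAA (the TATA box) and AGGTCA (a core motif of nuclear receptor sites). Ucp3 and the motif AGGTCA were chosen after values had been seen.
Nppa, chr4:148000472-148000721: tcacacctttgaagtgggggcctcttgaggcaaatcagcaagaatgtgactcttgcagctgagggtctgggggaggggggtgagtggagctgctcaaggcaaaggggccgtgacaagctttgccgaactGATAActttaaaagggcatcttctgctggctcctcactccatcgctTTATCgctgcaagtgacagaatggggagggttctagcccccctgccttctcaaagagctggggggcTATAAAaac
Nppb, chr4:147985650-147985899: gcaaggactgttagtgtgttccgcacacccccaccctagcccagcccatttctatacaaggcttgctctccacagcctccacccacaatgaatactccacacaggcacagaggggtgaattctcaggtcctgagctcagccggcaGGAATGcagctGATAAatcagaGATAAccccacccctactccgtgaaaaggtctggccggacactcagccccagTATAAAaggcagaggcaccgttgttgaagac
Ucp3, chr7:100472741-100472990: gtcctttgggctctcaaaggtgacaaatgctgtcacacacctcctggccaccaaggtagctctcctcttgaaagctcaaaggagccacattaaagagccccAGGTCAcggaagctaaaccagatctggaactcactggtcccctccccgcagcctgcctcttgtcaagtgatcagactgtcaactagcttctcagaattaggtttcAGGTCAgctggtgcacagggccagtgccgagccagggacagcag

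The Nppa window held GATAA from 121 bases before the start, its reverse complement from 75 bases, and TATAAA from 9 bases. The Nppb window held GATAA from 94 and from 83 bases before the start, CATTCC on the minus strand from 105 bases and TATAAA from 31 bases. Both genes lie on chromosome 4 with their starts 14.8 kb apart. The Ucp3 window held AGGTCA from 149 and from 44 bases. The same search covered Acsm5, Ech1 and Pln, whose windows are not printed and held no AGGTCA. Ech1 held 0 matches to any motif, and Acsm5 held GATAA alone, on the minus strand. Pln held GATAA from 183 bases on the minus strand and from 81 bases, and TATAAA from 219 bases. Of 32851 RefSeq windows of the same length, 22.6% held GATAA, 12.6% CATTCC, 12.4% TATAAA and 14% AGGTCA, so none of these motifs is rare, and a match here is a description of the letters and not a site of binding.

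Pln, the gene that was deleted, was measured at 13.71, 13.82 and 13.84 on the NTG arrays and at 6.40, 5.94 and 6.64 on the Tm180/PLB KO arrays. On each of these 6 arrays Pln went with the knockout part of the label. It does not check the transgene part, since the PLB KO arrays at 12 months were at 6.37, 5.66 and 6.63. The Pln difference of Tm180/PLB KO from NTG was -7.46 ± 0.324 (SE, adjusted p = 6.36e-12). Tpm1, the α-tropomyosin gene, was at 12.79, 12.89 and 12.89 in NTG and at 13.27, 13.20 and 13.21 in Tm180/PLB KO, so every Tm180/PLB KO array lay above every NTG array. That difference of 0.37 ± 0.0889 missed the threshold (adjusted p = 0.0902) and passed it when replicate number was a block (adjusted p = 0.0132). The sources used here do not say whether the Tpm1 probes match the transgene's messenger. Of the 20 tested genes next to Pln on chromosome 10, 10 on each side, limma called 0 and 1 had an unadjusted p under 0.05. Their differences ranged from -0.26 to 0.66, the highest being that of Vgll2 (adjusted p = 0.29).

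**Figure D1:**
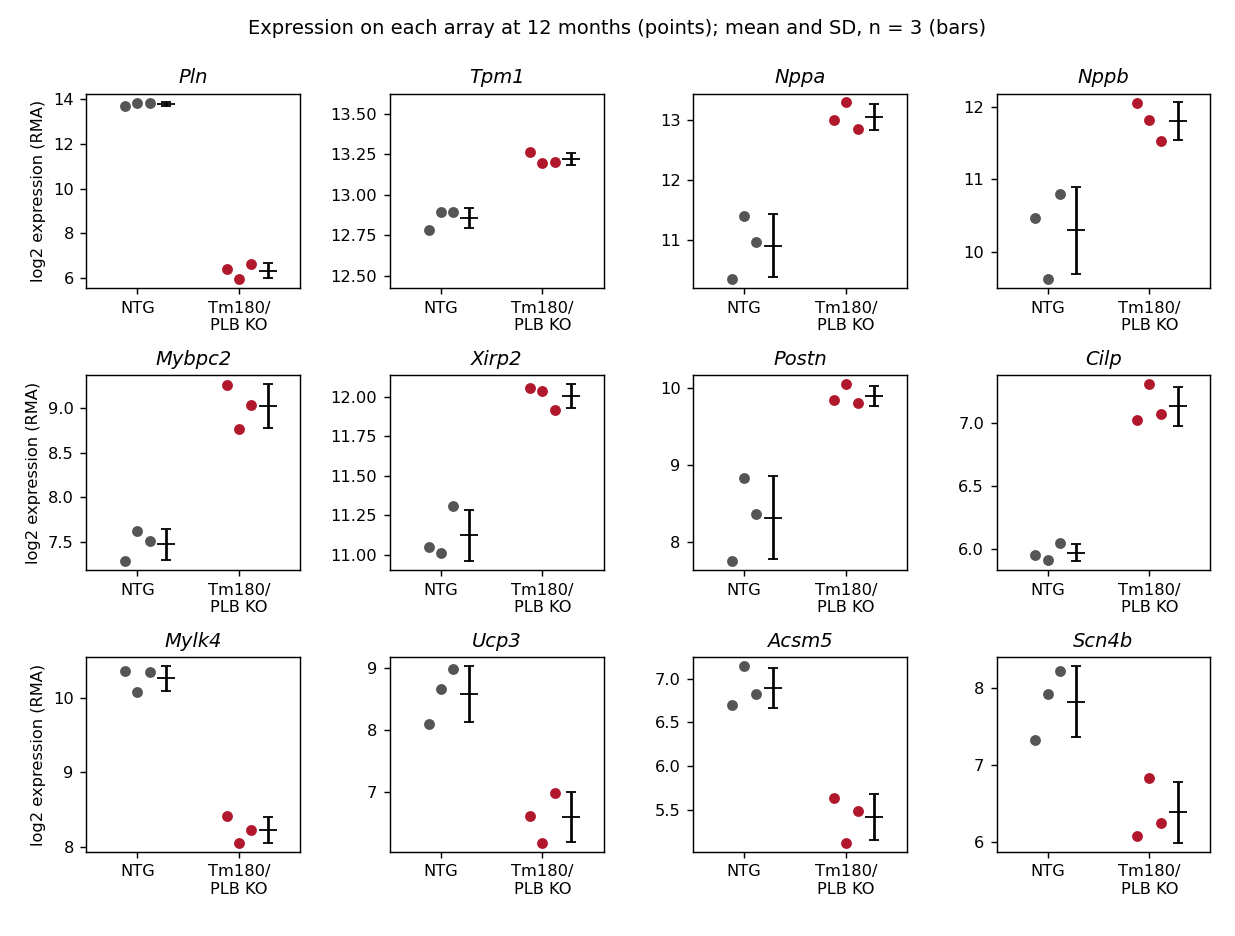
Log2 expression of 12 genes on each of the 6 arrays at 12 months, NTG in grey and Tm180/PLB KO in red, with the mean and SD of 3 arrays as bars; each panel has its own axis. The groups do not overlap in any panel; Pln falls from 13.71 or above to 6.64 or below, and Nppa rises from 11.40 or below to 12.84 or above.

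The fetal and hypertrophy list mixes genes of the embryonic ventricle, which the adult one re-expresses under load, with others linked to hypertrophy. Its genes were mostly higher in Tm180/PLB KO. This list and those below were written with earlier results of these data known, so their counts and medians are descriptions only. Of the 19 genes tested, 5 rose and 0 fell, beside 0.119% and 0.308% of all genes. The median log2 difference was 0.42 against 0.0059 over all genes. All 3 Tm180/PLB KO arrays lay above all 3 NTG arrays in 10 of them, against 5.87% of all genes. Nppa was at 10.35, 11.40 and 10.97 in NTG and at 13.00, 13.28 and 12.84 in Tm180/PLB KO. The groups were separated by more than 1 log2 unit (2.14 ± 0.28, adjusted p = 0.000392). Nppb, which encodes B-type natriuretic peptide, was at 10.46, 9.62 and 10.79 in NTG and at 12.05, 11.81 and 11.53 in Tm180/PLB KO (1.50 ± 0.257, 2.83-fold, adjusted p = 0.00708). Its lowest array was NTG replicate 2; without that array the difference was 1.17 (adjusted p = 0.0573), and without Tm180/PLB KO replicate 2 it was 1.50 (adjusted p = 0.0518).

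Nppa is also an atrial gene, so the other atrial markers are given beside it. Of 11 atrial markers tested, Nppa alone was called in the fit without the block. With the block Kcnj3, an atrial potassium channel, also fell (-0.84, adjusted p = 0.046). The median difference of the list was -0.16, and 0.17 without NTG replicate 2. Myl7, the atrial light chain, was at 5.51, 8.58 and 5.25 in NTG and at 5.51, 4.99 and 6.60 in Tm180/PLB KO. The highest Myl7 array was thus NTG replicate 2, which was also the NTG array with the highest Nppa. With the mean of Myl4 and Myl7 as a covariate the Nppa difference was 2.18 (adjusted p = 0.000474).

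The other called members of the fetal list encode proteins of the sarcomere and the intercalated disc. Mybpc2, the fast skeletal form of myosin-binding protein C, was at 7.28, 7.62 and 7.50 in NTG and at 9.26, 8.77 and 9.03 in Tm180/PLB KO (1.55 ± 0.193, 2.93-fold, adjusted p = 0.000279). Xirp2, which binds actin at the intercalated disc, was at 11.05, 11.01 and 11.31 in NTG and at 12.06, 12.04 and 11.92 in Tm180/PLB KO (0.88 ± 0.11, adjusted p = 0.000279). Ankrd1, a stretch-responsive cofactor that binds titin, was at 12.51, 12.25 and 12.65 in NTG and at 13.10, 13.07 and 12.98 in Tm180/PLB KO (0.58 ± 0.115, adjusted p = 0.0213). In each of these genes all Tm180/PLB KO arrays lay above NTG. Mybpc2 and Xirp2 passed whichever of the 6 arrays was left out. Ankrd1, the fifth called member of the fetal list and outside the rule for named genes, missed the threshold without NTG replicate 2 (0.47, adjusted p = 0.16) or any Tm180/PLB KO array (adjusted p from 0.0588 to 0.113).

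Myh7 and Acta1, the slow myosin heavy chain and skeletal α-actin, are the most familiar fetal genes of the list and did not pass. They fall outside the rule for named genes and are given for that familiarity. Myh7 was at 11.18, 11.61 and 11.46 in NTG and at 12.28, 12.11 and 12.27 in Tm180/PLB KO, with no overlap (0.80 ± 0.207, adjusted p = 0.114, and 0.0409 with the replicate block). Acta1 was at 10.55, 10.57 and 11.97 in NTG and at 12.10, 12.73 and 11.60 in Tm180/PLB KO (1.11 ± 0.339, adjusted p = 0.234). NTG replicate 3 of Acta1 lay above the lowest Tm180/PLB KO array. Myh6, the adult heavy chain, was at 13.17 to 13.21 in NTG and 13.03 to 13.22 in Tm180/PLB KO, and the ventricular markers as a list had a mean level of 12.88 to 12.92 in NTG and 12.77 to 12.86 in Tm180/PLB KO. That list was thus lower on every Tm180/PLB KO array, by -0.08 between the group means (exact permutation p = 0.1, two-sided, the smallest that 3 against 3 can give).

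Elsewhere in the contractile apparatus 1 gene of the thick filament and Z-disc list fell. Mylk4 was at 10.36, 10.07 and 10.34 in NTG and at 8.41, 8.06 and 8.23 in Tm180/PLB KO (-2.02 ± 0.229, adjusted p = 0.000105). The gap between the groups was far wider than the spread within either. Mybpc2 was the other called gene of this list of 28, whose median difference was 0.06 and of which 3 rose and 1 fell with the block. Of the 15 thin filament genes tested, limma called 0. At an unadjusted p under 0.05, 4 were higher and 2 lower, a larger share than the 6.44% of all genes. With the replicate block 1 rose and 1 fell, beside 161 and 211 of all 15918 genes.

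The extracellular matrix was higher. Of 65 matrix genes tested, 58 had a difference above 0 (51.6% of all genes did), 3 rose and 0 fell, and the median was 0.50. In 32 of them every Tm180/PLB KO array lay above every NTG array, against 5.87% of all genes. With the replicate block 17 of the matrix genes rose, beside 161 of all 15918 genes tested. The called genes were Postn, Cilp and Svep1. Postn encodes periostin, a matrix protein of activated cardiac fibroblasts, and was at 7.76, 8.84 and 8.37 in NTG and at 9.85, 10.05 and 9.80 in Tm180/PLB KO (1.58 ± 0.304, 2.99-fold, adjusted p = 0.0168). Cilp, a matrix protein known from cartilage and from fibrotic heart, was at 5.95, 5.91 and 6.04 in NTG and at 7.02, 7.31 and 7.07 in Tm180/PLB KO (1.16 ± 0.191, adjusted p = 0.00496). Svep1, a large cell adhesion protein of the matrix, was at 6.99, 7.61 and 7.42 in NTG and at 8.19, 8.51 and 8.47 in Tm180/PLB KO (1.05 ± 0.229, adjusted p = 0.0442).

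The arrays of each of these genes were separate, but the calls leaned on single arrays. Postn lost its call without NTG replicate 1, NTG replicate 3 or any Tm180/PLB KO array (adjusted p from 0.0552 to 0.113), with differences of 1.30 to 1.84 when any 1 of the 6 was left out. Svep1 lost it without any of the 6 (adjusted p from 0.0659 to 0.223), with differences of 0.88 to 1.19. Cilp lost it without Tm180/PLB KO replicate 2 alone (1.07, adjusted p = 0.054). Without that array 0 of the 65 matrix genes were called, and their median was 0.39.

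Fibroblast markers moved with the matrix genes, several of which they share. The mean level of 14 activated fibroblast markers was 6.62 to 7.05 on the NTG arrays and 7.36 to 7.59 on the Tm180/PLB KO arrays. Of the 14, 12 had a difference above 0, against 51.6% of all genes, with a median of 0.78. There were 2 called higher (Postn and Cilp), against 0.119% of all genes. With the block 4 were called higher, beside 161 of all 15918 genes. The mean of 10 resting fibroblast markers was 8.74 to 9.38 in NTG and 9.43 to 9.57 in Tm180/PLB KO. Both sets were thus higher on every Tm180/PLB KO array than on any NTG array, which for 3 arrays against 3 gives the smallest p an exact two-sided permutation test allows, 0.1. In bulk tissue more fibroblasts and more messenger per fibroblast cannot be told apart, and the part of the fibroblast share in the matrix result was not tested. Macrophage markers had a mean of 6.84 to 6.87 in NTG and 6.74 to 6.90 in Tm180/PLB KO, and endothelial markers of 8.99 to 9.42 and 9.25 to 9.31, both overlapping.

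The fibrillar collagens and the ligands upstream of them, given here although outside the naming rule except for Tgfb3 and Fstl1, were higher without passing. Col1a1, the main collagen of scar, was at 8.50, 9.33 and 9.35 in NTG and at 9.60, 9.97 and 10.17 in Tm180/PLB KO (0.85 ± 0.355, adjusted p = 0.601, and 0.0298 with the block). Tgfb3, a TGF-β ligand, was at 6.93, 7.69 and 7.29 in NTG and at 7.95, 8.23 and 8.19 in Tm180/PLB KO (0.82 ± 0.199, adjusted p = 0.0921, and 0.000723 with the block). The arrays of both genes did not overlap. Fstl1, a secreted glycoprotein of the follistatin family, differed by 0.73 (adjusted p = 0.0997, and 0.0247 with the block), Ccn2, a matricellular TGF-β target, by 1.0 (adjusted p = 0.11, and 0.0289 with the block) and Tgfb2 by 1.03 (adjusted p = 0.123, and 0.0143 with the block). Of the 31 genes of TGF-β and CCN signalling tested, limma called 0, 7 were higher and 1 lower at an unadjusted p under 0.05, and 4 rose with the block.

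**Figure D2:**
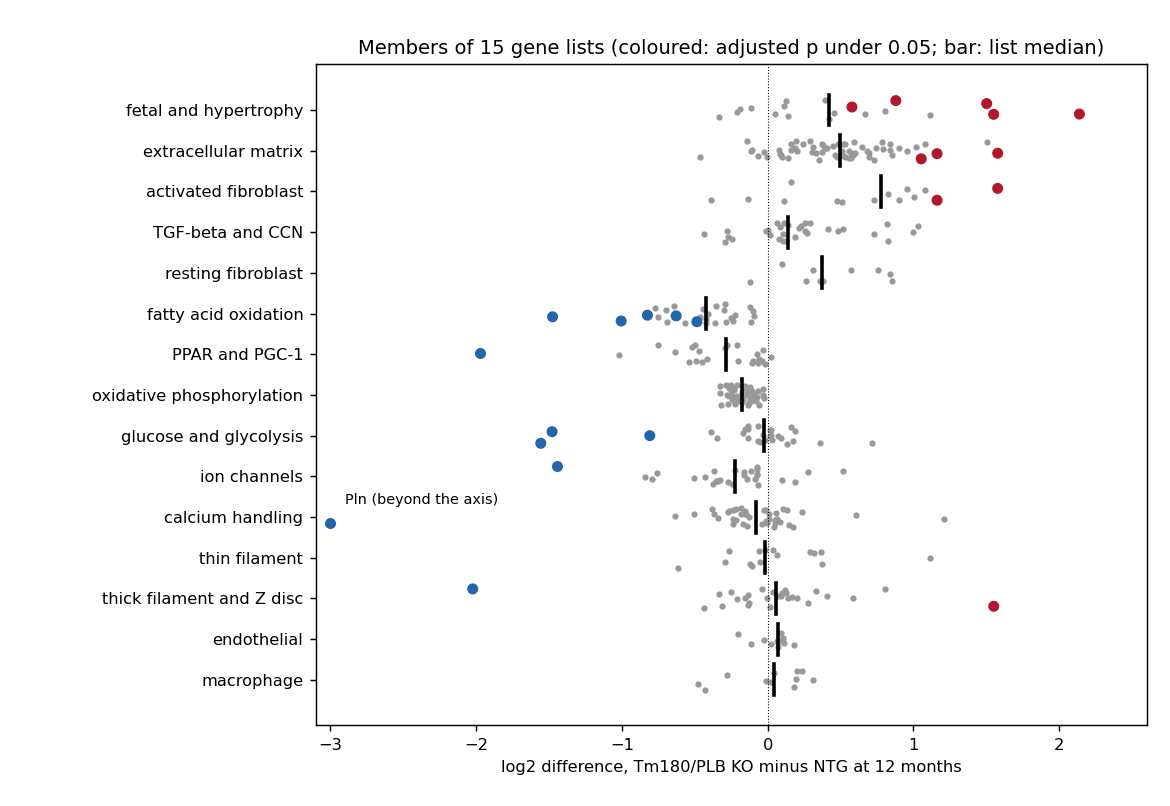
Log2 difference of Tm180/PLB KO from NTG at 12 months for each tested member of 15 gene lists (points; red called higher, blue called lower, grey not called; vertical bars are list medians; heights within a row are random). The medians are 0.78 for activated fibroblast markers, 0.50 for extracellular matrix, 0.42 for fetal and hypertrophy genes and -0.42 for fatty acid oxidation, and Pln lies off the axis at -7.46.

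Fatty acid oxidation was lower as a whole list. All 30 genes tested had a difference below 0 (48.4% of all genes did), 5 fell and 0 rose, the median was -0.42, and in 21 every Tm180/PLB KO array lay below every NTG array, against 4.62% of all genes. With the replicate block 19 fell, beside 211 of all 15918 genes tested. Acsm5, a mitochondrial acyl-CoA synthetase of medium-chain acids, was at 6.70, 7.14 and 6.83 in NTG and at 5.64, 5.12 and 5.48 in Tm180/PLB KO (-1.48 ± 0.189, 2.78-fold lower, adjusted p = 0.000323). Its call held whichever array was left out. Acot2, a mitochondrial acyl-CoA thioesterase, was at 9.75, 10.11 and 10.14 in NTG and at 9.23, 8.80 and 8.96 in Tm180/PLB KO (-1.01 ± 0.204, adjusted p = 0.0252). Ech1, an isomerase for unsaturated fatty acids, was at 12.21, 12.16 and 12.08 in NTG and at 11.55, 11.15 and 11.27 in Tm180/PLB KO (-0.83 ± 0.166, adjusted p = 0.0251).

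Both enzymes were separate between the groups, with Tm180/PLB KO replicate 2 the lowest array in each. Eci1, the enoyl-CoA isomerase of mitochondria, was at 10.83, 10.76 and 10.86 in NTG and at 10.19, 10.08 and 10.29 in Tm180/PLB KO (-0.63 ± 0.108, adjusted p = 0.00747). Acads, the short-chain acyl-CoA dehydrogenase, was the fifth called member and falls outside the naming rule (-0.49 ± 0.108, adjusted p = 0.0479). Hadha, the trifunctional protein's α subunit and likewise outside the rule, was at 12.25, 12.30 and 12.10 in NTG and at 11.96, 11.79 and 11.63 in Tm180/PLB KO (-0.42 ± 0.133, adjusted p = 0.261, and 0.00962 with the block). Without Tm180/PLB KO replicate 2 limma called 1 of the 30 genes, with a median of -0.42; Ech1 then differed by -0.74 (adjusted p = 0.191), Acot2 by -0.91 (adjusted p = 0.191) and Eci1 by -0.57 (adjusted p = 0.0646). Ech1 lost its call without any array but Tm180/PLB KO replicate 1, and Acot2 without NTG replicate 2 or 3 or Tm180/PLB KO replicate 2 or 3, with adjusted p up to 0.191 in both. Acads kept its call without NTG replicate 1 and lost it without any other array (adjusted p up to 0.267).

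Genes around this pathway were lower too. Of 24 targets and members of the PPAR and PGC-1 programme, which sets the level of fat-burning enzymes, 23 had a difference below 0. Of all genes 48.4% did. In the main fit 1 fell, Ucp3, against 0.308% of all genes. With the block 5 fell, beside 211 of all 15918 genes. Ucp3 was at 8.10, 8.65 and 8.98 in NTG and at 6.63, 6.19 and 6.99 in Tm180/PLB KO (-1.97 ± 0.277, adjusted p = 0.000914). The lowest NTG array lay more than 1 unit above the highest Tm180/PLB KO array, and the call held whichever array was left out. Of 56 oxidative phosphorylation genes, all had a difference below 0 with a median of -0.17, yet limma called 0, with 6 lower at an unadjusted p under 0.05 and 5 that fell with the block. Their mean level was 11.06 to 11.18 in NTG and 10.81 to 11.02 in Tm180/PLB KO. For the fatty acid oxidation list the means were 10.48 to 10.65 and 10.01 to 10.18, so both lists were lower on every Tm180/PLB KO array (exact permutation p = 0.1, the smallest possible).

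**Figure D3:**
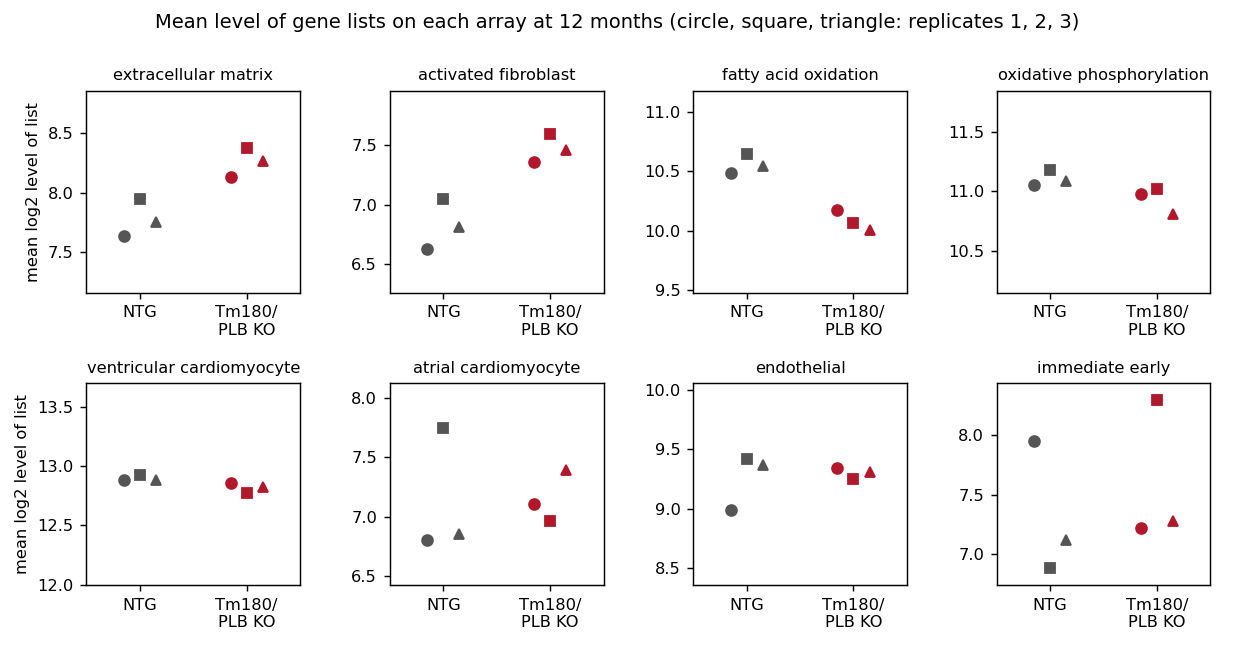
Mean log2 level of 8 gene lists, over all members with a probe set, on each of the 6 arrays at 12 months. NTG is in grey and Tm180/PLB KO in red, with the replicate number as the marker shape. Each panel spans the same range of log2 units. The atrial mean covers 12 genes, of which 11 were tested. Matrix and activated fibroblast genes are higher, and fatty acid oxidation and oxidative phosphorylation genes lower, on all 3 Tm180/PLB KO arrays, and the ventricular markers are lower on those arrays too, within a narrow range of 12.77 to 12.92.

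Glucose and related metabolism held 3 called genes. Of the 28 glycolysis and glucose genes 3 fell and 0 rose, and with the block 4 fell and 1 rose. The median difference was -0.03, and 0.013 without Tm180/PLB KO replicate 3. The mean level of the list was 10.50 to 10.58 in NTG and 10.32 to 10.47 in Tm180/PLB KO, lower on every Tm180/PLB KO array (exact permutation p = 0.1, two-sided). Fbp2, the muscle fructose bisphosphatase, was at 7.73, 8.17 and 7.51 in NTG and at 6.72, 5.88 and 6.14 in Tm180/PLB KO (-1.56 ± 0.263, 2.94-fold lower, adjusted p = 0.00613). Prps2, which makes the ribose donor of nucleotides, was at 8.56, 8.70 and 9.38 in NTG and at 7.48, 7.40 and 7.33 in Tm180/PLB KO (-1.48 ± 0.198, adjusted p = 0.000491). NTG replicate 3 was the highest for Prps2, and the Tm180/PLB KO arrays lay close together. Slc2a12, a glucose transporter, fell by 0.81 on the log2 scale (adjusted p = 0.0284). Fbp2 missed the threshold without NTG replicate 2 (-1.37, adjusted p = 0.0616) or Tm180/PLB KO replicate 2 (-1.37, adjusted p = 0.0646), and Slc2a12 without NTG replicate 1 or 2 or Tm180/PLB KO replicate 2 or 3 (adjusted p from 0.0529 to 0.231).

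Among 22 genes of energy shuttles and amino acid use 2 fell and 0 rose, and with the block 6 fell and 1 rose. Fah, the last enzyme of tyrosine breakdown, fell by 1.0 (adjusted p = 0.00957), and Acss1, the mitochondrial acetyl-CoA synthetase, by 0.68 (adjusted p = 0.00613). Fah missed the threshold without NTG replicate 2 or 3 or Tm180/PLB KO replicate 1 or 3 (adjusted p up to 0.0659), and Acss1 without replicate 2 of either group (adjusted p up to 0.0573).

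Calcium handling, the pathway of the deleted gene, held no called gene besides Pln in the fit without the block. Of 42 genes tested 1 fell, Pln, and 0 rose. At an unadjusted p under 0.05, 2 were higher and 6 lower, Pln among them, a larger share than the 6.44% of all genes. With the block 1 rose and 3 fell, beside 161 and 211 of all 15918 genes. The members that follow fall outside the naming rule and were chosen for their roles. Atp2a2, which encodes the SERCA2 pump that phospholamban binds, was at 13.47, 13.54 and 13.48 in NTG and at 13.38, 13.34 and 13.28 in Tm180/PLB KO (-0.17 ± 0.076, adjusted p = 0.707). Ryr2, the calcium release channel, was at 12.03, 12.14 and 11.87 in NTG and at 11.77, 11.36 and 11.74 in Tm180/PLB KO (-0.38 ± 0.123, adjusted p = 0.289). Both were lower on every Tm180/PLB KO array by less than the test could call. Hrc, a calcium-binding protein of the reticulum, was at 10.81, 11.07 and 10.81 in NTG and at 10.37, 10.59 and 10.22 in Tm180/PLB KO (-0.51 ± 0.138, adjusted p = 0.136, and 0.0105 with the block). Ryr3, a release channel scarce in ventricle, was at 5.37, 5.52 and 5.61 in NTG and at 6.37, 7.26 and 6.51 in Tm180/PLB KO (1.21 ± 0.283, adjusted p = 0.0748, and 0.0363 with the block). Sln, the atrial relative of phospholamban, was at 5.13, 6.10 and 4.96 in NTG and at 5.12, 5.03 and 5.48 in Tm180/PLB KO, with the groups overlapping.

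Electrical and signalling genes held a few of the larger changes. Scn4b, a β subunit of the sodium channel, was the 1 gene called among 29 ion channel genes and was at 7.32, 7.93 and 8.23 in NTG and at 6.07, 6.83 and 6.24 in Tm180/PLB KO (-1.45 ± 0.214, 2.72-fold lower, adjusted p = 0.00176). The median of the ion channel list was -0.23, with 25 of 29 below 0, against 48.4% of all genes. With the block 5 fell, beside 211 of all 15918 genes. Sema3a, a guidance ligand that limits sympathetic nerve growth, was at 6.51, 6.66 and 6.95 in NTG and at 5.34, 5.38 and 5.57 in Tm180/PLB KO (-1.28 ± 0.141, adjusted p = 0.000104). Kctd16, which associates with the GABA-B receptor, was at 5.60, 5.76 and 5.56 in NTG and at 7.0, 6.68 and 7.05 in Tm180/PLB KO (1.27 ± 0.149, adjusted p = 0.000143). These 3 genes passed whichever array was left out.

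Gnao1, the α subunit of the Go protein, was at 7.62, 8.03 and 8.09 in NTG and at 8.88, 8.69 and 9.07 in Tm180/PLB KO (0.97 ± 0.154, adjusted p = 0.00434) and was the 1 called gene of 36 in adrenergic and G protein signalling, where with the block 2 rose and 3 fell. Hspa1l, a heat shock chaperone, rose by 0.91 (adjusted p = 0.00496) and Pdgfrl, a receptor-like protein, by 0.81 (adjusted p = 0.00235). Both calls, and that of Gnao1, held whichever of the 6 arrays was left out.

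The remaining genes taken by the naming rule lost their calls more readily. Those higher were Plcg2, a phospholipase C (0.85), Tnfrsf12a, the receptor of the cytokine TWEAK (0.80), Tlr4, the endotoxin receptor (0.78), and Adamts20, a secreted metalloprotease (0.74). Those lower were Mme, the peptidase neprilysin that degrades natriuretic peptides (-1.24), Cabcoco1 (-1.19), Slc41a3, a magnesium transporter (-1.14), Plbd1 (-1.07), Maob, a monoamine oxidase (-1.05), and Abhd1 (-1.04). Each of these 10 lost its call without at least 1 array, and the adjusted p then reached 0.259 for Tlr4, 0.223 for Plcg2 and Maob, 0.201 for Adamts20 and Tnfrsf12a, and 0.0588 to 0.0754 for the other 5. In all, 15 of the 68 genes passed whichever of the 6 arrays was left out: Pln, Mylk4, Ucp3, Prps2, Acsm5, Scn4b, Sema3a, Slc25a34, Pdgfrl, Xirp2, Hspa1l, Gnao1, Kctd16, Mybpc2 and Nppa.

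At 12 months the groups with 1 of the changes showed how far the Tm180/PLB KO levels were shared. The differences of Tm180 and of PLB KO from NTG use the same NTG arrays, so they are set side by side without a test of likeness. For Nppa the log2 differences from NTG were 2.18 with the transgene alone, 1.81 with the knockout alone and 2.14 with both. In the same order they were 1.44, 0.64 and 1.58 for Postn, and 1.16, 0.28 and 1.16 for Cilp. For Mylk4 the differences were -1.41, -1.15 and -2.02, for Sema3a -0.65, -0.84 and -1.28, and for Kctd16 0.67, 1.02 and 1.27. By group means Tm180/PLB KO was thus farthest from NTG in the last 3 genes, and level with Tm180 in Nppa and Cilp. Single arrays overlapped with Tm180 for Mylk4 and with PLB KO for Kctd16. The genes were picked on the Tm180/PLB KO arrays against NTG, which favours a larger difference in that genotype.

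Direct comparisons tested where Tm180/PLB KO differed from each single genotype without NTG. Against Tm180, limma called 1 of 15918 genes (0.00628%), Pln (-7.39, adjusted p = 7.81e-12), with 213 at an unadjusted p under 0.05 (1.34%). Without Tm180 replicate 1 that count was 5. The 95% interval of the difference from Tm180 was -0.62 to 0.54 for Nppa, -0.53 to 0.54 for Nppb, -0.50 to 0.77 for Postn, -0.39 to 0.41 for Cilp and -0.63 to 0.53 for Ucp3. Differences within those bounds remain possible. Of the 68 genes, 11 had an interval off 0 before adjustment, and of these Pln alone passed adjustment. The others included -1.09 to -0.13 for Mylk4, -0.92 to -0.34 for Sema3a, 0.29 to 0.91 for Kctd16 and 0.14 to 0.95 for Mybpc2 (Sema3a adjusted p = 0.712).

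Against PLB KO, limma called 0 genes, with 451 at an unadjusted p under 0.05 (2.83%), and 0 with the replicate block. Without Tm180/PLB KO replicate 3 that count was 1, Sbk3, a kinase of striated muscle. Cilp was 0.88 higher in Tm180/PLB KO than in PLB KO (95% interval 0.48 to 1.28, adjusted p = 0.664) and Postn 0.94 higher (0.31 to 1.57). The Nppa difference was 0.33 (-0.25 to 0.91). Tpm1 was 0.45 higher in Tm180/PLB KO (0.27 to 0.64, adjusted p = 0.429). Before adjustment these intervals left out 0 for Cilp, Postn and Tpm1 and took it in for Nppa, as did that of Svep1 (0.38, -0.09 to 0.86). Of the 68 genes, 28 had such an interval off 0 against PLB KO. The Tm180/PLB KO arrays here are those on which the genes were picked against NTG.

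**Figure D4:**
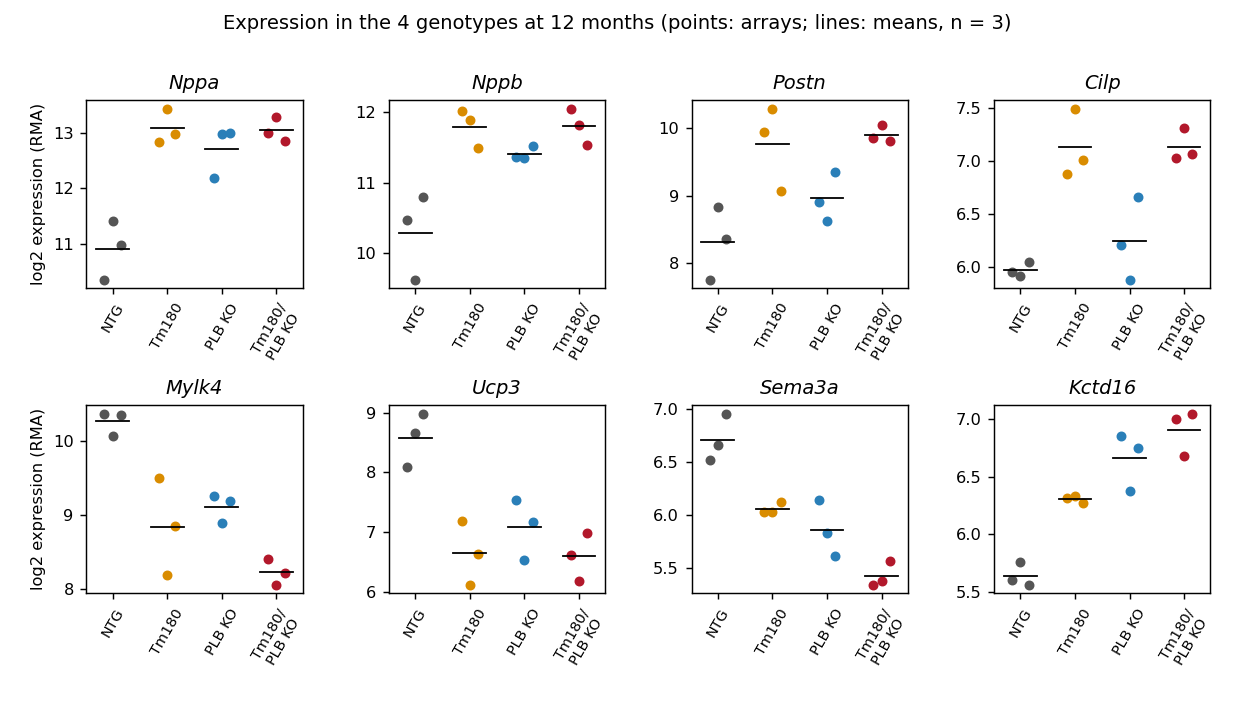
Log2 expression of 8 genes on each array of the 4 genotypes at 12 months (points; lines are means of 3 arrays; each panel has its own axis). Nppa and Nppb lie above NTG in all 3 other genotypes, and Cilp lies near 7 in both genotypes with the transgene. By their means Mylk4 and Sema3a are lowest, and Kctd16 highest, in Tm180/PLB KO. Single arrays overlap with those of Tm180 for Mylk4 and of PLB KO for Kctd16.

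The same genotypes at 4 months gave a check on separate arrays. Of the 68 genes called at 12 months, 66 differed in the same direction at 4 months, 60 (88.2%) had an unadjusted p under 0.05 there, against 6.3% of all genes tested, and 13 were also called, against 0.113% of all genes (18 genes, 0.0565% higher and 0.0565% lower). Immediate early genes differed on those arrays as well: their mean level was 8.07, 6.95 and 6.85 in NTG and 8.40, 8.68 and 8.57 in Tm180/PLB KO at 4 months. The median difference of the 27 was 1.31 there, against 0.24 at 12 months, with 0 called by limma and 19 at an unadjusted p under 0.05. None of the 27 is among the 68 genes, and their part in the 4-month values was not tested. Because the genes were picked on the 12-month arrays, the smaller size at 4 months in 64 of the 68 is a description only. Nppa was 2.34 above NTG at 4 months and 2.14 at 12, Mylk4 -2.05 and -2.02, Mybpc2 1.54 and 1.55, and Scn4b -1.44 and -1.45. Those 4 genes were thus about as far from NTG at either age.

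Ucp3 and Slc25a22 were the 2 genes that did not share the direction. Their differences at 4 months, 0.21 ± 0.277 and 0.0018 ± 0.124, could not be told from 0 (limma unadjusted p = 0.456 and 0.989). In NTG, Ucp3 was at 6.63, 6.60 and 6.75 at 4 months and at 8.10, 8.65 and 8.98 at 12 months. In Tm180/PLB KO it was at 6.90, 6.58 and 7.12 at 4 months and at 6.63, 6.19 and 6.99 at 12 months. The NTG level was thus higher on every array at the later age, while the Tm180/PLB KO arrays of the ages overlapped. At 12 months Tm180 was at 7.19, 6.12 and 6.64 and PLB KO at 7.53, 6.55 and 7.17, both below every NTG array of that age. The difference from NTG moved from 0.21 at 4 months to -1.97 at 12, a change of -2.19 (95% interval -3.0 to -1.37) that missed the threshold (adjusted p = 0.27). It passed with array weights (adjusted p = 0.0278) and with the replicate block (adjusted p = 0.0212), although the numbers were not shown to pair the arrays in that contrast.

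Slc25a22, a mitochondrial glutamate carrier named here after its values were seen, had the same pattern at a smaller size. NTG was at 7.12, 7.24 and 7.28 at 4 months and at 7.65, 8.12 and 7.85 at 12 months, and Tm180/PLB KO at 7.18, 7.27 and 7.21 and at 7.16, 7.02 and 7.18. The change of the difference was -0.76 (-1.12 to -0.39). Its difference of -0.75 at 12 months (adjusted p = 0.00496) missed the threshold narrowly without replicate 2 of either group (adjusted p = 0.0522 and 0.0518). Nppb moved the other way, from 0.64 above NTG at 4 months (adjusted p = 0.647) to 1.50 at 12, a change of 0.87 (0.11 to 1.62). Across all genes, limma called 0 for a change of the difference with age, with 199 at an unadjusted p under 0.05 (1.25%). In that fit the difference from NTG was thus not shown to change with age for any gene.

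**Figure D5:**
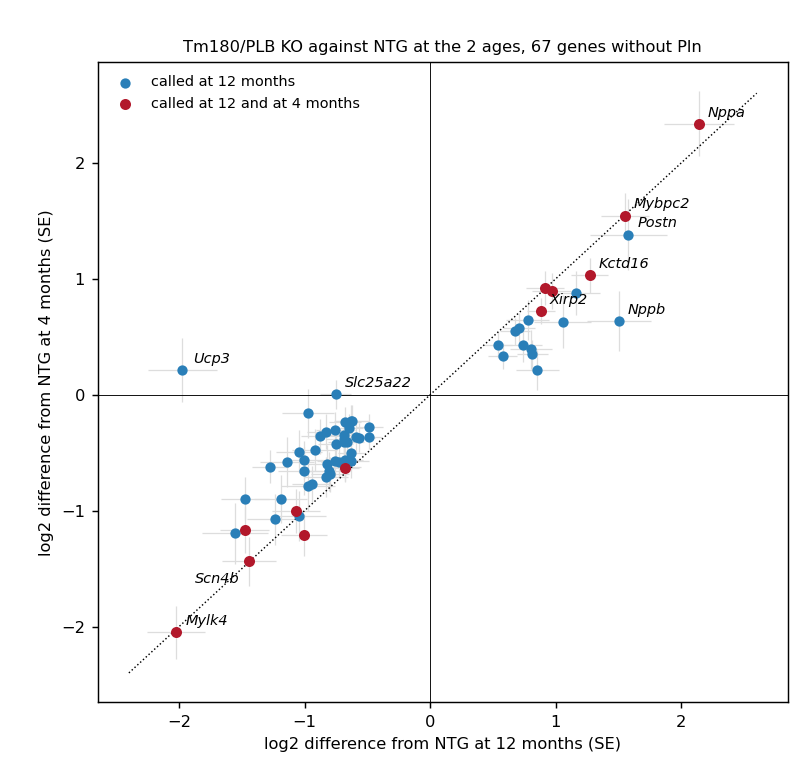
Log2 difference of Tm180/PLB KO from NTG at 12 months (horizontal) and at 4 months (vertical) for the genes called at 12 months without Pln, with SE bars and the line of equality; red points were called at both ages. Most points lie on the same side of 0 at both ages and nearer 0 at 4 months, and Ucp3 and Slc25a22 stand at or above 0 on the vertical axis.

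Several checks describe the 6 arrays. Their medians lay within 5.777 to 5.901, the range of all 24. RMA equalises the arrays' distributions, so these medians do not measure quality. Arrays of a group correlated at 0.967 to 0.982 and arrays of different groups at 0.965 to 0.987, and 0 pairs held identical values. The weights limma gave replicates 1, 2 and 3 were 0.606, 1.207 and 0.974 in NTG. In Tm180/PLB KO they were 1.974, 0.883 and 0.752, a lower weight marking an array with more scatter. Xist was high on 2 of 3 arrays in each group, so both groups held animals of either sex by that measure. Y-linked genes were high on Tm180/PLB KO replicate 2 and NTG replicate 3. The other groups differed. Xist was high on 1 of 3 Tm180 and 3 of 3 PLB KO arrays at 12 months. At 4 months it was high on 3 of 3 Tm180/PLB KO and 2 of 3 NTG arrays. The part of sex in the 4-month check was not tested. With a Y-linked covariate limma called 1 gene against Tm180 and 0 against PLB KO, as without it. On the 6 arrays at 12 months, immediate early genes had a mean of 6.88 to 7.95 in NTG and 7.22 to 8.30 in Tm180/PLB KO. The highest mean was on Tm180/PLB KO replicate 2. Of the 27 genes limma called 0, with 0 at an unadjusted p under 0.05 and 0 called with the replicate block. Their part in the other results was not tested. Adipocyte, smooth muscle and pericyte, lymphocyte and neutrophil, erythroid and platelet, Schwann and neuron, skeletal muscle and mesothelial markers held 0 called genes in each list, with medians between -0.18 and 0.11 and 3 genes at an unadjusted p under 0.05 among 51.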

How the data were processed

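RNA of 24 left ventricle samples was hybridised to Affymetrix arrays. The authors deposited log2 values that, per the submitters' processing notes, came from RMA. RMA subtracts background, equalises the arrays' distributions and summarises probes, which can shrink global shifts. Its version and settings were not stated in the labels. Probe sets (35557) were named through the platform annotation: 21789 had 1 symbol, 1621 several and 12147 none. Symbols were updated by Entrez number (21698 matched RefSeq, GRCm38.p6). The 19938 genes were each represented by their brightest probe set and kept above 4.83, the 25th percentile, on at least 3 arrays (15918). limma 3.58.1 (R 4.3.3) fitted 8 group means to all 24 arrays (16 residual degrees of freedom), with Benjamini-Hochberg adjustment. The code of the fit was run on simulated data with independent noise on each array. Those data left out the deviations that same-numbered arrays share, described below, so that run does not bear on them.

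Named genes were Pln, Tpm1, the 15 highest and 15 lowest called genes whose arrays did not overlap, up to 4 called members of each list or else the 2 with the smallest p, and up to 5 called genes each way in the other contrasts. Predicted and clone-named genes (1 called) were counted and not named. The comparison, lists and rules were chosen with earlier results of these data known. Titles mark replicates as biological, but do not say whether animals were pooled. Same-numbered arrays deviated together (correlations 0.129 to 0.494 in the main comparison), so the replicate number was fitted as a block in an alternative fit. The main fit held group means alone. Its counts and adjusted p-values therefore leave this pairing out, and values with the block are given beside them where stated. The labels do not explain the description code, whose number goes with the group; an effect of it and the group cannot be told apart.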

Additional observations from a re-analysis of the deposited data

How the results depend on the processing

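The count of 68 genes for Tm180/PLB KO against NTG at 12 months moved to 372 with the replicate number as a block, 116 with array weights and 12 in a fit to these 6 arrays alone, and ranged from 18 to 63 when 1 array was left out: 63, 24 and 50 without NTG replicates 1, 2 and 3, and 41, 18 and 28 without Tm180/PLB KO replicates 1, 2 and 3. It lay between 60 and 83 with no dim filter, a stricter one, a trended robust prior, median centring, a Y-linked or an atrial covariate, or the mean of probe sets. Of the 35 called genes that the text names by rule, 11 kept the call in the fit to 6 arrays, 34 with the atrial covariate and 33 without a dim filter. The smaller fits hold fewer arrays, and the causes of these moves were not tested. The change of the difference with age had 1 call with array weights and 1 with the replicate block, both Ucp3, against 0; leaving out 1 array gave 1 to 5 calls against Tm180 and 0 to 1 against PLB KO. Among the genes named by rule the replicate block also called Klf15 (adjusted p = 0.0355), Lipe (0.0211), Pi16 (0.00427), Tmod4 (0.0486) and Uqcrc1 (0.0381), and beyond these and the values beside the results it changed no call of such a gene.

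Signs turned in the following. With 1 array left out, Tm180/PLB KO against NTG ranged from -0.0014 to 0.26 for Gp9, -0.0043 to 0.20 for Pecam1, -0.36 to 0.0081 for Myh1, -0.82 to 0.89 for Kdm5d and -1.78 to 1.22 for Uty, the last 2 Y-linked; Kdm5d was -0.0407 with array weights and -0.10 with the atrial covariate. Against Tm180 the ranges were -0.16 to 0.14 for Nppa, -0.21 to 0.40 for Postn and -0.31 to 0.22 for Ucp3, and for the change with age -0.49 to 0.064 for Nppa. List medians near 0 also turned when 1 array was left out, among them those of the thin filament, antioxidant, endothelial and skeletal muscle lists; that of the immediate early genes was -0.05 without Tm180/PLB KO replicate 2. The number of arrays, 3 a group, limits the precision.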

Other observations

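Of the 33 called genes that the naming rule did not take, several act in lipid and mitochondrial metabolism; they were picked here after their values had been seen. Slc25a34 and Slc25a42 encode mitochondrial carriers, the latter for coenzyme A, and fell by 0.95 (adjusted p = 0.00496) and by 0.76 (adjusted p = 0.0257). Slc22a5, the carnitine transporter of the plasma membrane, fell by 0.62 (adjusted p = 0.0469), Ehhadh, a peroxisomal enzyme of fatty acid oxidation, by 0.75 (adjusted p = 0.0123), and Retsat, a retinol saturase, by 0.76 (adjusted p = 0.0157). Gpr22, an orphan receptor of heart and brain, fell by 0.97 (adjusted p = 0.0468) and Fgf16, a fibroblast growth factor of heart, by 0.83 (adjusted p = 0.0335). Rtn4, a reticulon of the endoplasmic reticulum, rose by 0.68 (adjusted p = 0.00819), and Otulin, a deubiquitinase of linear ubiquitin chains, by 0.71 (adjusted p = 0.00957). These adjusted p-values are limma's, and of these 9 genes Slc25a34 alone passed whichever of the 6 arrays was left out.

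Other lists held few calls. Hspa1l was the 1 called gene of 27 in stress and protein quality control, and Maob the 1 of 22 among antioxidant genes and oxidases, where with the replicate block 1 rose and 1 fell. limma called 0 of 24 cardiac transcription factors, 0 of 18 complement and interferon genes, 0 of 15 circadian genes and 0 of 3 Y-linked genes; at an unadjusted p under 0.05 the counts were 3, 3, 0 and 0, and with the replicate block 1, 0, 0 and 0. That 1 was Klf15, a regulator of cardiac metabolism (-0.52, adjusted p = 0.143 without the block).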
